A study of Mus musculus with 8 samples.

Results

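Complement genes of spleen stroma were followed after culture with leukemic or normal B cells. The genes were taken by symbol from the probe annotation of a mouse Illumina bead array and are *C3*, *C4b*, *C1ra*, *Cfb*, *Cfd*, *Serping1*, *Cd55* and *Cd59a*. Of these 8 genes 6 had a probe there, 1 probe each, out of 16593 symbols with a probe. No probe was annotated to *C3* or *Cfd* alone, and both were not analysed here. The 1719 probes without a single gene symbol were not searched for them. The first group is mSSC-YFP stroma cultured with leukemic B cells from spleens of adult, heavily leukemic Eμ-TCL1 mice, a model of chronic lymphocytic leukemia (CLL) driven by a TCL1 transgene that B cells express. The second is the same stroma cultured with splenic B cells of adult control mice of matched age. The stroma of both groups is 1 line, immortalised from C57BL6/N spleen of E18.5 embryos and carrying YFP, a yellow fluorescent protein. The line was used at passage 2 to 6, shared a dish with B cells (1 stromal cell to 20) during 40 to 48 h and was then separated from them with a cell sorter. Each group has 4 arrays of total RNA. Nothing says that replicates came from separate cultures or mice, and the p-values below therefore cover the spread among these arrays, which may be technical.

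Complement is a cascade of plasma proteins that marks and lyses cells. The classical branch starts when C1q, held with the proteases C1r and C1s, binds antibody on a surface, and C4 and C2 are then cleaved to form an enzyme that cleaves C3, the protein on which all branches meet. The alternative branch amplifies this step through factor B (*Cfb*) and factor D (*Cfd*, also called adipsin). Host cells restrain the cascade with the C1 inhibitor (*Serping1*), with CD55, which speeds the decay of the C3-cleaving enzymes, and with CD59, which blocks the final pore. Most plasma complement comes from the liver, and fibroblasts also make several of the early components.

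In this stroma the regulators *Cd59a*, *Serping1* and *Cd55* and the classical component *C4b* were detected on all 8 arrays, and the protease *C1ra* and the alternative branch factor *Cfb* were at or near background. Detected means a detection p below 0.05, computed by the scanner software against negative control beads. None of the 4 genes detected throughout rose or fell past the test after culture with leukemic cells. All 4 had a higher leukemic mean, by 0.47 to 0.97 on the log2 scale, and all 4 had their highest level on the same array, leukemic replicate 4. Without that array the differences were 0.04 to 0.37. Over all features tested 50.6% had a higher leukemic mean. In such bulk RNA fewer cells of a type and less RNA per cell cannot be told apart.

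The arrays resembled each other in depth, with 13504 to 13938 of 25697 probes detected and a median signal between 67.2 and 90.2, and their number limits the precision. Leukemic replicate 4 stood apart, with a correlation across features of 0.955 to 0.970 with the other arrays, against at least 0.984 among the other 7 (features are not independent replicates). It also carried the most B cell transcripts. Of 20 B cell markers with a probe 14 were detected on leukemic replicate 4, 7 to 9 on the other leukemic arrays and 5 to 7 on control arrays. Their summed signal was 8829 on leukemic replicate 4, 1743 to 2070 on the other leukemic arrays and 1218 to 1641 on control arrays. The 6 B cell markers that entered the test all passed the rank product as higher, with a median difference of 1.48, and 0.979 without leukemic replicate 4. *Cd79a* and *Cd79b* of the B cell receptor were detected on all 8 arrays, and *Ms4a1* and *Pax5* on none. Of 11 pan-leukocyte genes 8 were detected on leukemic replicate 4, 5 to 7 on the other leukemic arrays and 5 to 6 on control arrays, with summed signals of 2296 to 5155 in leukemic and 1989 to 3567 in control arrays. Of the 6 tested, 1 passed the rank product as higher, and their median difference was 0.544, and 0.0736 without leukemic replicate 4. Of 14 myeloid genes 3 to 5 were detected on arrays of either group, with summed signals of 1779 to 4394 in leukemic and 1482 to 1740 in control arrays. Of the 4 tested, 2 passed the rank product as higher, and their median difference was 0.626, and 0.380 without leukemic replicate 4. Of the tested T and NK (1), adipocyte (4) and fibroblast and spleen mesenchyme (12) genes 0 passed. The pan-leukocyte gene *Ptprc* and the T cell gene *Cd3e* were also detected on none. The stromal label fits its markers: 12 of 15 fibroblast and spleen mesenchyme genes, among them *Pdgfra*, *Pdgfrb*, *Col1a1* and *Nkx2-5*, were detected on all 8 arrays, while *Tlx1* and *Tcf21* were detected on none. Their summed signal was 73030 to 102200 on leukemic arrays and 76910 to 89290 on control arrays.

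Levels below are log2 signals after background correction and normalization of the arrays to common quantiles, and differences are leukemic minus control. A pair of tests was run over the same 9971 features, each a gene or an unnamed probe. The rank product, which the study names, estimates per direction the share of false positives (q) among features ranked at least as high, and 31 features, 0.311%, passed as higher at q below 0.05 and 1, 0.01%, as lower. By limma 0 features, 0%, passed at a Benjamini-Hochberg adjusted p below 0.05, while 389 (3.9%) were higher and 367 (3.68%) lower at an unadjusted p below 0.05. The 4 complement genes entered the test by their level in both groups. Of the 4, 0 passed the rank product and 0 passed limma, and 1, *Cd59a*, was higher at an unadjusted p below 0.05. Their groups overlapped in all 4 cases, and over all features 2.21% were without overlap as higher and 2.31% as lower.

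*C4b* (NM_009780) encodes C4, the component that becomes covalently bound to surfaces in the classical and lectin branches. Its level was 6.02, 5.67, 5.72 and 7.33 in leukemic replicates 1 to 4, against 5.54, 5.78, 5.74 and 5.81 in control replicates 1 to 4. Only leukemic replicates 1 and 4 lay above all control arrays, and replicates 2 and 3 lay among them. The mean was 6.18 ± 0.78 in leukemic and 5.72 ± 0.12 in control arrays (SD, n = 4 each), a difference of 0.47 ± 0.32 (SE; 95% interval -0.25 to 1.18; limma adjusted p = 0.671, rank product q = 0.799). Over all features 3.05% were higher in leukemic arrays by at least as much. The raw signals were dim, at 88.3 to 236 in leukemic and 70.9 to 92.0 in control arrays. Without leukemic replicate 4 the difference was 0.08 ± 0.16. The mouse has a near-identical neighbouring copy, *C4a*, whose own probe was detected on 0 of 8 arrays. Probe sequences were not used here, so binding of both transcripts to the *C4b* probe was not tested.

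The protease gene *C1ra*, the catalytic start of the classical branch, was not detected on any array, with signals of 41.7 to 54.2 in leukemic and 42.7 to 52.9 in control arrays. *Cfb*, which supplies the catalytic subunit of the alternative C3-cleaving enzyme, was detected on leukemic replicate 4 alone, at a signal of 88.8 and a detection p of 0.0238. Its other leukemic signals were 46.5, 53.5 and 53.4, against 47.5, 50.9, 51.5 and 49.2 on control arrays. Neither gene entered the test, and no fold is given because the leukemic mean of each lay below the level at which probes were detected on control arrays.

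**Figure D1:**
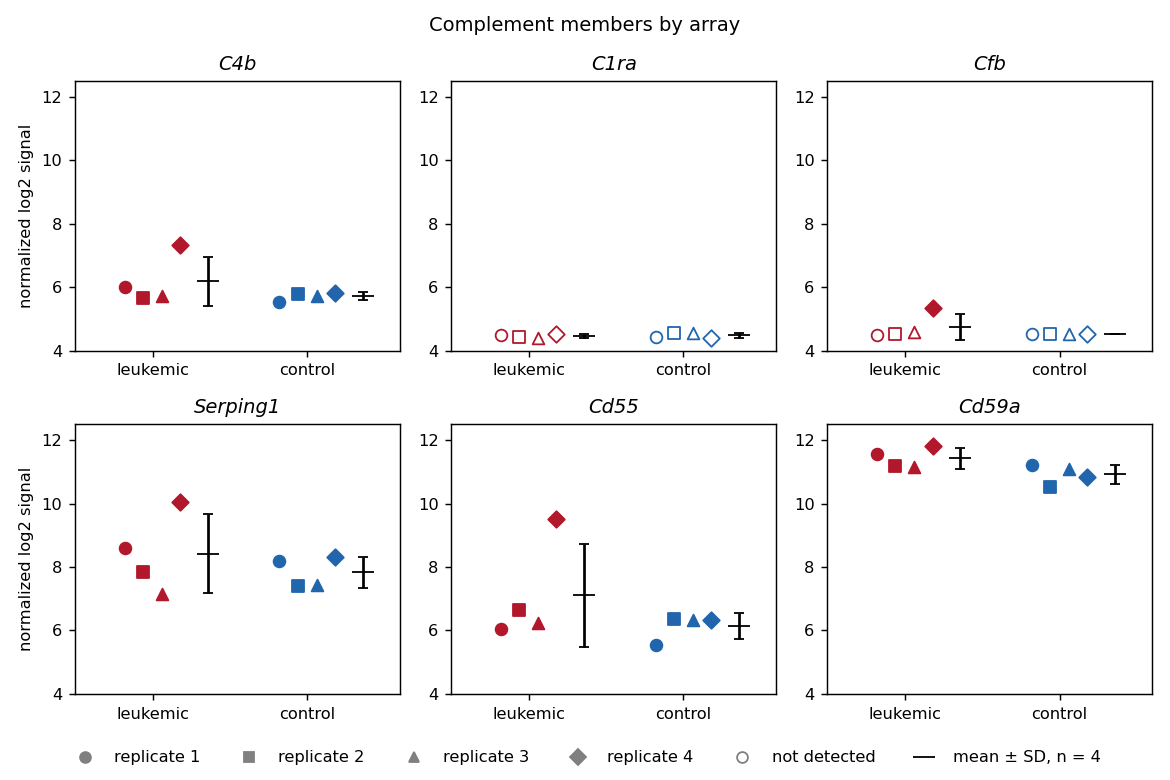
Normalized log2 signal (y axis) of the 6 complement genes with a probe in each leukemic and control array, with the symbol shape giving the replicate, open symbols for arrays where the probe was not detected, and black bars for the mean ± SD of 4 arrays. Leukemic replicate 4 is the highest array of *C4b*, *Cfb*, *Serping1*, *Cd55* and *Cd59a*, and *C1ra* stays below 4.6 on all 8.

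*Serping1* (NM_009776) encodes the C1 inhibitor, a secreted serpin that inactivates C1r, C1s and the lectin branch proteases. Its level was 8.61, 7.85, 7.16 and 10.06 in leukemic replicates 1 to 4, against 8.20, 7.39, 7.42 and 8.31 in control replicates 1 to 4. The leukemic arrays held both the highest and the lowest value of the 8, with raw signals of 179 to 1360 in leukemic and 203 to 348 in control arrays. The mean was 8.42 ± 1.24 in leukemic and 7.83 ± 0.49 in control arrays (SD, n = 4 each), a difference of 0.59 ± 0.51 (SE; 95% interval -0.55 to 1.72; limma adjusted p = 0.729, rank product q = 0.358). Over all features 1.67% were higher in leukemic arrays by at least as much. The *Serping1* difference was 0.04 ± 0.32 without leukemic replicate 4 and 1.01 without leukemic replicate 3.

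*Cd55* (NM_010016), the decay-accelerating factor that stromal and blood cells carry on their membrane, had the largest difference of the 4. Its level was 6.05, 6.64, 6.25 and 9.52 in leukemic replicates 1 to 4, against 5.53, 6.37, 6.34 and 6.32 in control replicates 1 to 4. Leukemic replicates 1 and 3 lay within the control range, replicate 2 just above it and replicate 4 9.22-fold above the mean of the other 3 leukemic arrays. The raw signals were 92.6, 154, 112 and 931 in leukemic replicates 1 to 4, against 70.7, 118, 122 and 112 in control replicates 1 to 4. The mean was 7.11 ± 1.62 in leukemic and 6.14 ± 0.41 in control arrays (SD, n = 4 each), a difference of 0.97 ± 0.64 (SE; 95% interval -0.44 to 2.38; limma adjusted p = 0.660, rank product q = 0.203). Over all features 0.321% were higher in leukemic arrays by at least as much. Without leukemic replicate 4 the difference was 0.17 ± 0.23.

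*Cd59a* (NM_007652), the membrane inhibitor of pore formation, kept most of its difference without leukemic replicate 4. Its level was 11.57, 11.17, 11.15 and 11.82 in leukemic replicates 1 to 4, against 11.21, 10.53, 11.10 and 10.85 in control replicates 1 to 4. Leukemic replicates 1 and 4 lay above all control arrays, and the other 2 lay above 3 of the 4 control arrays. The raw signals were 2380 to 4270 in leukemic and 1410 to 2360 in control arrays, all far above background. The mean was 11.43 ± 0.32 in leukemic and 10.92 ± 0.30 in control arrays (SD, n = 4 each), a difference of 0.50 ± 0.18 or 1.42-fold (SE; unadjusted 95% interval 0.10 to 0.91). That difference did not pass when all features were counted (limma adjusted p = 0.639, unadjusted p = 0.0196, rank product q = 0.413). Over all features 2.58% were higher in leukemic arrays by at least as much. The *Cd59a* difference was 0.37 ± 0.16 without leukemic replicate 4 (unadjusted p = 0.0384, adjusted p = 0.582, limma).

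The B cell markers moved on the same array as the complement genes. On leukemic replicate 4 *Cd55* lay 3.37, *Serping1* 2.23, *C4b* 1.62 and *Cd59a* 0.89 above its control mean, and the mean of the 6 tested B cell markers lay 3.64 above. On leukemic replicates 1 to 3 the marker mean lay 1.22, 0.87 and 0.63 above, and *Cd55* lay at -0.10, 0.50 and 0.10. *Cd59a* lay 0.65, 0.24 and 0.23 above on the same 3 arrays. There *Serping1* lay at 0.77, 0.01 and -0.67 and *C4b* at 0.3, -0.05 and 0. The part of B cell RNA in these differences was not tested.

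**Figure D2:**
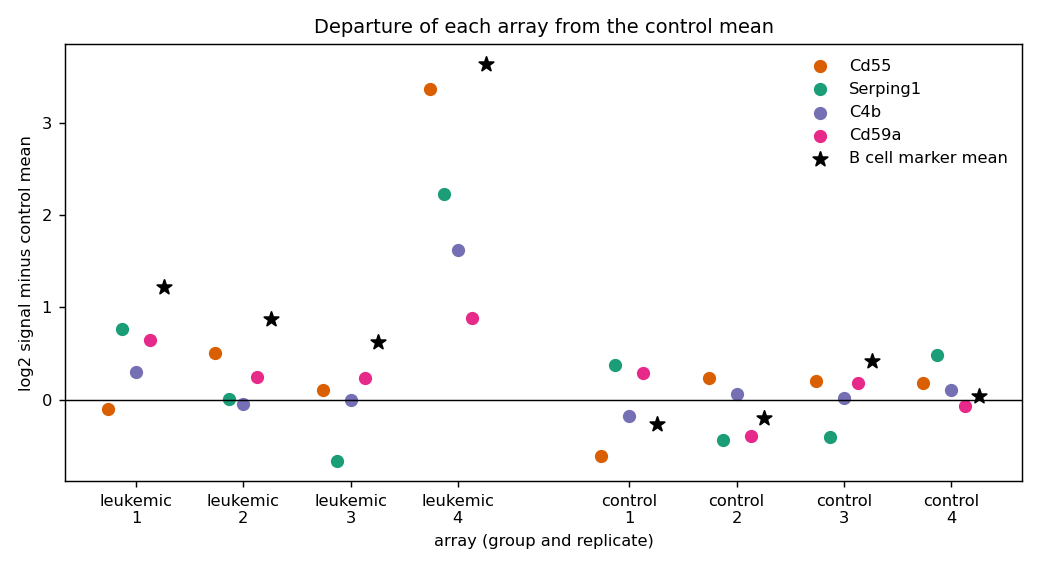
Log2 signal minus the mean of the 4 control arrays (y axis) on each of the 8 arrays (x axis) for the 4 tested complement genes (circles) and for the mean of 6 B cell markers (stars). On leukemic replicate 4 all 5 series lie 0.89 to 3.64 above the control mean, and on the other arrays the complement genes lie between -0.67 and 0.77.

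The promoters of the 2 membrane regulators are shown as a description. Both genes had their highest level on leukemic replicate 4, as had 25.3% of all features. The part of promoter sequence in their levels was not tested. The table of RefSeq promoters (GRCm38.p6) held 5 of the 8 genes and none for *C4b*, *Cfb* or *Serping1*. Each run gives the 250 bases before the start site that the table uses, on the gene's strand, with *Cd55* at chr1:130462745-130462994, minus strand, and *Cd59a* at chr2:104095551-104095800, plus strand. For both genes that start site lies inside the annotated span of the gene, so the windows belong to the start of 1 annotated transcript and not to the outermost start of the gene. Capitals mark a match to 1 of 6 motifs searched on both strands, without overlap between matches there: the NF-kB motif, TTCNNNGAA (STAT), the interferon-stimulated response element (2 copies of GAAA with 2 bases between them), TGANTCA (AP-1), TGACGTCA (CRE) and AGGTCA (retinoid receptor hexamer).
Cd55: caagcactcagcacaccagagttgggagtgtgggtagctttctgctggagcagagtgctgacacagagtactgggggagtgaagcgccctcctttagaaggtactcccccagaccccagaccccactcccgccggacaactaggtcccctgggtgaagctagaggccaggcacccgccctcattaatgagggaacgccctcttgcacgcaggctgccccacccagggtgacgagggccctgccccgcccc
Cd59a: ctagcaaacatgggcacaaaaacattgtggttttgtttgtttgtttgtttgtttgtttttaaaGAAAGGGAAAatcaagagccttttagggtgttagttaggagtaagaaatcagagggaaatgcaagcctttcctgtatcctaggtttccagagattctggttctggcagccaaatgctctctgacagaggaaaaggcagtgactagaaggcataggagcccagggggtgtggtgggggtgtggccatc
The *Cd59a* window held 1 match, GAAAGGGAAA to the interferon-stimulated motif at positions -187 to -178 from the start site, and the *Cd55* window held 0. Of all 32851 promoter windows of this length 2.98% held that motif, 7.25% the NF-kB motif, 7.02% the STAT motif, 6.75% the AP-1 motif, 1.55% CRE and 14% the retinoid hexamer. Of the windows not shown, that of *C3* held AGGTCA at positions -243 to -238, and those of *C1ra* and *Cfd* held 0 matches. A match of letters describes the window and is not evidence of a bound site.

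The 4 genes varied together mainly through 1 array. Over all 8 arrays Pearson's r was 0.951 between *C4b* and *Cd55*, 0.863 between *C4b* and *Serping1*, 0.752 between *Serping1* and *Cd55* and 0.560 between *Cd55* and *Cd59a*. Over the 7 arrays without leukemic replicate 4 the same pairs had 0.232, 0.361, -0.409 and -0.354, while *Serping1* and *Cd59a* had 0.747 over 8 arrays and 0.480 over 7. Among all tested genes with a symbol the closest patterns to *Serping1* were those of *Snx18* (r = 0.994), *Gpx3* (0.977) and *Gm2a* (0.977), which stayed at 0.983, 0.925 and 0.930 over 7 arrays. The closest to *Cd59a* were *Myo10* (0.977), *Srpx2* (0.974) and *Cpne8* (0.973), with 0.967, 0.976 and 0.973 over 7. *Cd55* was most like *Arhgap30* and *Upk3b* (0.995 each), with 0.929 and 0.925 over 7, and *Nacc2* (0.985, and 0.790 over 7). *C4b* was most like *Pmp22* (0.982), *Slc9a3r1* (0.981) and *Plpp1* (0.978), which had 0.728, 0.677 and 0.528 over 7. These values describe arrays that share a chip and, for 4 of them, a group, and each pattern is picked from 9174 named genes.

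Of 46 other complement genes listed by role, 41 had a probe, 25 of these were detected on no array and 11 entered the test. Of the 11, 0 passed the rank product and 0 passed limma. At an unadjusted limma p below 0.05, 2 (*Clu* and *C8g*) were higher and 0 lower, beside 3.9% and 3.68% of all features. A higher leukemic mean was found for 8, beside 50.6% of all features. The arrays of 2 (*C1s2* and *C8g*) were without overlap as higher, beside 2.21% of all features. The median difference of the 11 was 0.376 and that of the 4 genes above 0.545, beside 0.0028 over all 9971 features. Without leukemic replicate 4 these medians were 0.173, 0.126 and 0.00604. The highest of the 8 arrays was leukemic replicate 4 in 7 of the 11, in 4 of the 4 genes above and in 25.3% of all features.

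Among genes that start the classical branch, the C1q chains *C1qa*, *C1qb* and *C1qc* and *C4a* were detected on no array, and 4 of 8 with a probe were tested. *C1s1* and *C1s2* encode copies of the protease C1s, *C2* its substrate and *C1rl* a C1r-like protease. *C1s1* was 8.0, 7.51, 7.80 and 10.30 in leukemic replicates 1 to 4, against 8.07, 7.99, 7.34 and 7.38 in control replicates 1 to 4, so that only leukemic replicate 4 left the control range upwards. It differed by 0.71 ± 0.51, and by 0.08 without leukemic replicate 4. *C1s2* was 6.30, 6.40, 6.37 and 7.71 in leukemic replicates 1 to 4, against 6.09, 6.24, 5.84 and 6.10 in control replicates 1 to 4, without overlap. It differed by 0.63 ± 0.29 (limma adjusted p = 0.639, rank product q = 0.371), and by 0.29 without leukemic replicate 4. *C2* differed by 0.66 ± 0.37 and *C1rl* by 0.41 ± 0.24, or 0.26 and 0.20 without leukemic replicate 4. Binding of *C1s1* and *C1s2* transcripts to each other's probes was not tested.

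Of the lectin branch 7 genes had a probe and 0 entered the test. Its ficolin gene *Fcna* was detected on 0 leukemic and 3 control arrays and the other 6, with *Mbl1*, *Mbl2*, *Masp1* and *Masp2*, on no array. Of the terminal components that build the pore, *C8g*, the lipocalin-like chain of C8, was 7.48, 7.54, 7.30 and 7.78 in leukemic replicates 1 to 4, against 7.05, 7.02, 7.28 and 7.24 in control replicates 1 to 4, without overlap. It differed by 0.38 ± 0.15 (limma adjusted p = 0.639, rank product q = 0.692), and by 0.29 without leukemic replicate 4. *C8b* differed by -0.20 ± 0.14 and *C9*, detected on 2 arrays of each group, by 0.09 ± 0.17, or 0.17 without leukemic replicate 4.

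Of the fluid-phase regulators clusterin (*Clu*), a chaperone that binds the assembling pore, was the 1 of 6 with a probe that was tested, and the other 5 were detected on no array. *Clu* was 10.09, 9.76, 10.41 and 11.30 in leukemic replicates 1 to 4, against 9.19, 9.19, 9.93 and 10.18 in control replicates 1 to 4. Leukemic replicates 3 and 4 lay above all control arrays. The difference was 0.77 ± 0.33 or 1.70-fold (limma adjusted p = 0.639, rank product q = 0.158), and 0.46 ± 0.24 without leukemic replicate 4.

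Of the membrane regulators *Cr1l*, which encodes Crry, a rodent inhibitor of the C3-cleaving enzymes, ran the other way. It was 7.66, 7.71, 7.66 and 8.19 in leukemic replicates 1 to 4, against 8.23, 8.32, 7.77 and 8.09 in control replicates 1 to 4. Leukemic replicates 1 to 3 lay below all control arrays and replicate 4 among them. The difference was -0.29 ± 0.17 (limma adjusted p = 0.656, rank product q = 0.618 for lower), and -0.42 ± 0.15 without leukemic replicate 4 (unadjusted p = 0.018, adjusted p = 0.574, limma). *Cd59b*, the second mouse CD59 gene, differed by 0.31 ± 0.19, or 0.14 without leukemic replicate 4. Binding of *Cd59a* and *Cd59b* transcripts to each other's probes was not tested. *Cd46*, *Cd55b* and *Susd4* were detected on no array. Of 9 receptor genes, *C1qbp*, a mainly mitochondrial protein that binds C1q, was the 1 tested and differed by -0.06 ± 0.14, or 0.09 without leukemic replicate 4. The anaphylatoxin receptors *C3ar1*, *C5ar1* and *C5ar2* were detected on no array, and *Cr2*, the receptor for C3 fragments on mature B cells, on 1 leukemic and 0 control arrays.

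**Figure D3:**
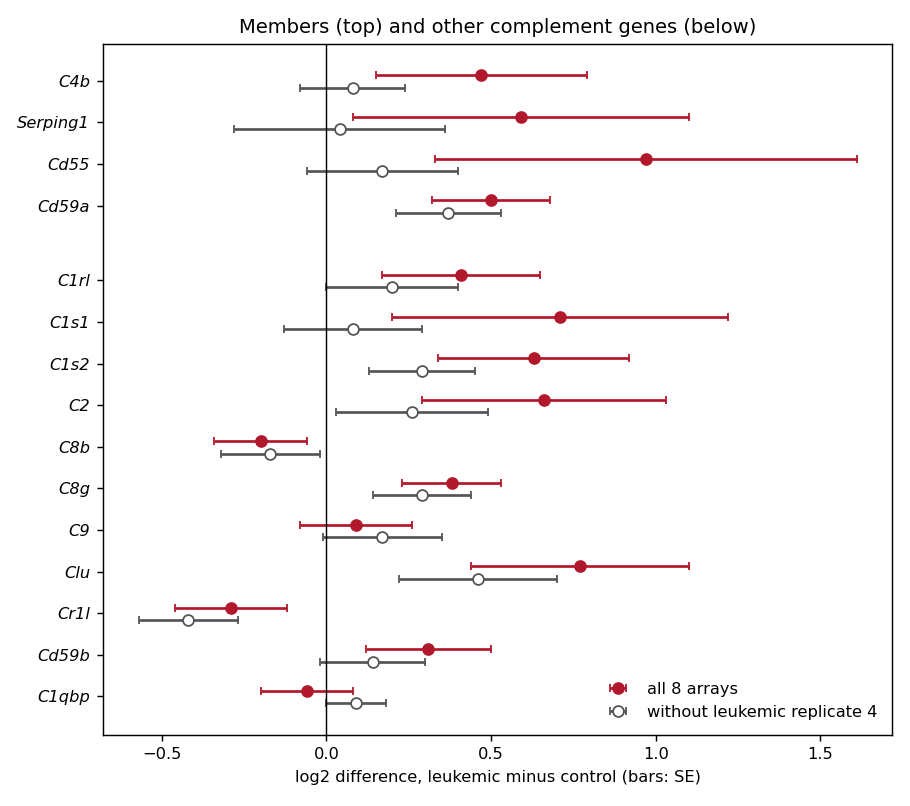
Log2 difference, leukemic minus control (x axis, bars give the SE), of the 4 tested complement genes of the set (top) and the 11 other complement genes tested (below), from all 8 arrays (filled) and without leukemic replicate 4 (open). The 4 upper genes differ by 0.47 to 0.97 with all arrays and by 0.04 to 0.37 without that array, and *Cr1l* and *C8b* lie below 0 in both.

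With the values that the authors normalized, which are compressed at low signal, the differences were 0.11 for *C4b*, 0.39 for *Serping1*, 0.41 for *Cd55* and 0.48 for *Cd59a*, and 0 of the 4 passed the rank product. With arrays weighted by their quality they were 0.15, 0.03, 0.39 and 0.34 in the same order.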

How the data were processed

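The deposited signal table holds, per probe and array, an intensity on a linear scale that the authors did not normalize between arrays, and a detection p-value of the scanner software. The deposited matrix holds log2 values that the authors normalized with the lumi package, with settings not given in the sources used here. Genes were named from the platform annotation (23978 of 25697 probes). Intensities were background-corrected and quantile-normalized with neqc (limma 3.58.1, R 4.3.3, offset 16). Probes detected on at least 4 of 8 arrays were kept (13732), with the brightest probe per gene (9971 features). The unpaired rank product over 16 array pairs and 100 permutations within arrays was written for this work, and limma with a trend was the second test. Both were run on simulated data with a common spread for all features and no outlying array. Their error rates on arrays like these were not tested. Alternatives concerned background, scaling, filter, probes, pairing, weights and each array left out with values and features kept. Named genes are all members, up to 4 tested genes per role with the largest differences, and the 3 closest patterns per gene. The members and lists were chosen with earlier results of these data known.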

Additional observations from a re-analysis of the deposited data

Results flagged for a closer look

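In 34 groups of 4 arrays (6 complement genes of the set with a probe and 11 other complement genes tested, 2 groups each) the gap of the highest or lowest array was set against the group's range, and 4 groups had an array standing apart. Chance gives this in about 5% of groups. In 3 of the 4 it was leukemic replicate 4: *Cfb* at 5.34, against 4.48 to 4.60 on the other leukemic arrays, *C1s2* at 7.71, against 6.30 to 6.40, and *Cr1l* at 8.19, against 7.66 to 7.71. In the fourth it was control replicate 1, with *Cd55* at 5.53, against 6.32 to 6.37 on the other control arrays. Without control replicate 1 the *Cd55* difference was 0.77. *Cd55* on leukemic replicate 4 was at 9.52 against 6.05 to 6.64 on the other leukemic arrays, 9.22-fold above their mean. It fell just short of the limit of this rule.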

How the results depend on the processing

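Under 18 alternatives, which reuse the same arrays, the lowest difference of *C4b* was 0.08 ± 0.164 and that of *Serping1* 0.03 ± 0.365 (SE). For *Cd55* it was 0.17 ± 0.23 and for *Cd59a* 0.34 ± 0.152. In sign all 4 genes stayed higher in leukemic arrays under all 18 alternatives. A gene of the set passed under 1 of them alone, *Cd59a* with the authors' values, no filter and every probe, a combination chosen after seeing the data (0.48, rank product q = 0.0316). Leaving out 1 array gave 0.08 to 0.64 for *C4b*, 0.04 to 1.01 for *Serping1*, 0.17 to 1.33 for *Cd55*, 0.37 to 0.60 for *Cd59a* and 0.126 to 0.814 for their median. The median of the other complement genes was 0.027 with no filter and 0.0058 with that combination. Both settings also include the genes that did not enter the main test, among them the 25 detected on no array. Of 9971 features, 10 rose and 5 fell with the authors' values, and 0 fell with no background correction or offset 50. The counts were 58 and 6 of 18312 features with no filter, 51 and 0 of 13732 with every probe, and 70 and 93 of 25697 with that combination. Other permutation seeds, also chosen after seeing the data, gave 28 to 37 and 1 to 2. Leaving out 1 array gave 6 to 40 and 0 to 14, with 6 higher when leukemic replicate 4 was out and 17 when leukemic replicate 1 was out, and 18, 14 and 14 when control 1, 2 or 4 was out. The lower count was 14 with leukemic replicate 2 out and 10 with control 4 out. The causes were not tested. At an unadjusted limma p below 0.05 the count was 756 of 9971 with the main processing. It was 317 to 1050 with 1 array left out, the lowest without control replicate 2, and 1651 of 25697 with that combination. Without overlap as higher were 220 of 9971 with the main processing, 344 with median scaling and 269 to 468 with 1 array left out. Fewer arrays overlap less easily, so the counts with 1 array left out are not comparable with the main count. With that combination 459 of 25697 were without overlap as higher. Same-numbered arrays deviated together in 3 of the 4 numbers (r = 0.251, 0.301, 0.194 and 0.0308), and 6 of 8 arrays correlated best with their own number. With the replicate number as a block 43 rose and 18 fell, and 0 of the 4 genes passed. Each value rests on 4 arrays per group.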

Other observations

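Known inducers of complement transcription and genes of their pathways were also read. They were 26 cytokines, receptors, transcription factors and feedback inhibitors, 23 with a probe and 17 tested. Of the 17, 0 passed the rank product and 0 passed limma, and 14 had a higher leukemic mean, beside 50.6% of all features. Their median difference was 0.223, and 0.141 without leukemic replicate 4, beside 0.0028 and 0.00604 over all features. The cytokine *Il6*, detected on 3 leukemic and 2 control arrays, differed by 1.15 ± 0.91 (SE, n = 4 each), with a rank product q of 0.0529, and by 0.36 without leukemic replicate 4. Its signal-transducing receptor chain *Il6st* differed by 0.50 ± 0.23, the NF-kB inhibitor *Nfkbia* by 0.48 ± 0.59 and the feedback inhibitor *Socs3* by 0.44 ± 0.36. Without leukemic replicate 4 these were 0.29 for *Il6st*, 0.20 for *Nfkbia* and 0.08 for *Socs3*. *Il1a*, *Il1b*, *Ifng* and *Osm* were detected on no array, and *Tnf* on 1 control array.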
